A study of Homo sapiens with 8 samples.

Results

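Nascent transcription of 10 genes of cyclic nucleotide signaling was followed through RAS-induced senescence and through knockdown of the METTL3-METTL14 methyltransferase complex. The genes were the phosphodiesterases PDE1C, PDE3A, PDE3B, PDE4B, PDE4D, PDE5A, PDE7B and PDE10A and the cGMP-dependent kinases PRKG1 and PRKG2. They were found by gene symbol, and all 10 were present among the 27945 genes of the count table and passed the filter on low counts that left 12844 genes for testing. The set was selected on measured values of these same libraries, because after METTL14 knockdown PDE3A lay below its level in control cells and PDE7B rose most. The contrasts of shMETTL14 cells with shControl and control cells are therefore described with no test for any of the 10 genes. PDE3A and PDE7B were tested only in a contrast that shares no library with the values that chose them. PDE3A and PRKG2 are also on a list of genes that the study picked from these libraries for rising in senescence and falling with both knockdowns, so their directions in senescence and in each knockdown against shControl cells were fixed by that choice and are not independent evidence.

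The cells were IMR90, primary human diploid fibroblasts of embryonic lung, kept at 2% oxygen. The assay was fastGRO-seq, in which polymerases already engaged in isolated nuclei run on with a labeled nucleotide and the labeled RNA is sequenced, so reads mark ongoing transcription, introns included. There were 4 groups of 2 libraries. Control cells carry the genotype label WT, and no hairpin is named for them. The senescent cells expressed an inducible fusion of the estrogen receptor with oncogenic H-RAS (ER:RAS), were treated with 100 nM 4-OHT, the tamoxifen derivative that switches the fusion on, and were harvested on day 6. They carried shControl, shMETTL3 or shMETTL14, each a short hairpin RNA. Senescence and the hairpin vector cannot be told apart in a contrast of senescent with control cells, and all samples come from a single fibroblast strain. The study describes the libraries of a group as independent biological experiments, while the labels give only replicate numbers.

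The second messengers cAMP and cGMP are made by adenylyl and guanylyl cyclases and are broken down by phosphodiesterases, whose families differ in which of the pair they cut. PDE4 and PDE7 enzymes hydrolyze cAMP, PDE5 hydrolyzes cGMP, and PDE1, PDE3 and PDE10 enzymes accept both, PDE3 being inhibited by cGMP. cGMP acts largely through the kinases encoded by PRKG1 and PRKG2, and drugs against PDE3, PDE4 and PDE5 are used in heart, airway and vascular disease. In fibroblasts, cAMP is known to restrain proliferation and matrix production.

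Library totals ranged from 14897360 to 20306299 reads, but 21 ribosomal RNA rows took 86.2% to 92.5% of these, which left between 1513930 and 2048475 counts a library for all other rows. All 13 fibroblast markers were tested, but 8 of them (61.5%, beside 13.3% of all genes) were called lower in senescent shControl against control cells and 9 (69.2%, beside 12%) in shMETTL14 against shControl cells. In senescence 1 was called higher (7.69%, beside 13.3%), which was VIM at a log2 fold change of 0.44, and in shMETTL14 against shControl cells none was. Their summed normalized counts were 42100 to 45200 in control, 31900 to 33600 in shControl, 30900 to 36500 in shMETTL3 and 17300 to 20700 in shMETTL14 cells. Of 7 epithelial markers, KRT8 and KRT18 held 9 to 43 counts a library and EPCAM at most 1, and the list summed to 47.8 to 51.4, 28.9 to 55.6, 21.8 to 23.6 and 62.1 to 78 in the same order. Among immune markers, CD68 had 17 and 16 counts in control, 60 and 45 in shControl, 42 and 26 in shMETTL3 and 49 and 42 in shMETTL14 cells and was called higher in senescence (log2 fold change 2.05), while CD3E was at 0 in each library. METTL3 had 80 and 78 counts in control, 77 and 47 in shControl, 16 and 19 in shMETTL3 and 73 and 56 in shMETTL14 cells, a log2 fold change of -2.04 ± 0.31 (SE) for shMETTL3 against shControl (edgeR adjusted p = 1.8e-05). METTL14 had 60 and 55, 24 and 28, 41 and 48, and 18 and 14 counts in the same order, and its change of -0.86 ± 0.34 in shMETTL14 against shControl cells did not pass the threshold (adjusted p = 0.076). METTL14 was already lower in senescent shControl than in control cells (-0.76 ± 0.28, adjusted p = 0.047). These counts measure ongoing transcription and not mature RNA or protein, so they do not measure the knockdowns. The study shows the knockdowns by western blot. The variance between the libraries of a group was 10.3 times that of sampling noise in shMETTL3 cells and 2.08 to 4.94 times in the other groups.

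Between senescent shControl and control cells, 2 of the 8 genes tested were higher and 3 were lower, and 13.3% of all genes were called higher and 13.3% lower. PDE4D and PRKG2 rose, of which PRKG2 is on the study's list, and PDE5A, PDE1C and PRKG1 fell. The calls of PDE1C and PRKG1 were lost with an offset for gene length. In that fit 14.8% of all genes were called higher and 12.4% lower. Between shMETTL3 and shControl cells, 3 of 9 were higher (PDE3B, PDE4B, PRKG1) and 3 lower (PDE3A, PDE1C, PRKG2), against 12.2% and 11.2% of all genes. None of these 3 higher calls held with an offset for gene length, and PDE3A and PRKG2 are the genes on the study's list. Between shMETTL3 and control cells, 3 of 9 were higher (PDE7B, PDE4D, PRKG2) and 2 lower (PDE1C, PDE5A), against 20.1% and 20.1%. Between shMETTL14 and shMETTL3 cells, none of 8 was higher and 4 were lower (PDE5A, PRKG1, PDE4B, PDE4D), against 16.5% and 18.7%. With the offset for gene length this became 2 higher (PDE10A, PRKG2) and 2 lower (PDE5A, PRKG1), against 15.2% and 16.5% of all genes in that fit. For shMETTL14 against shControl cells, the contrast behind the selection, the shares of all genes were 9.15% higher and 12% lower and nothing is read from them here. The counts are few, and the contrasts share libraries with each other.

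**Figure D1:**
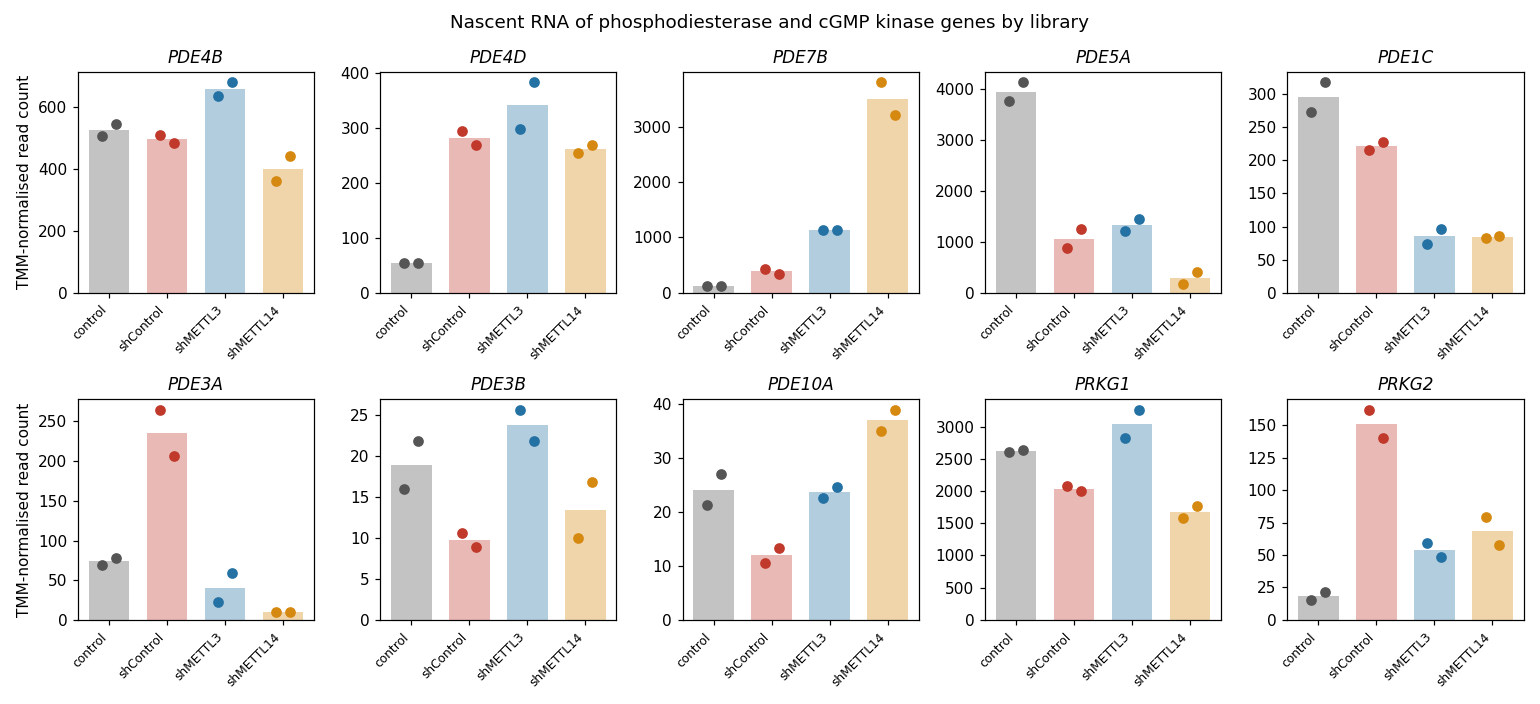
TMM-normalized read counts (y axis, linear, from 0, with a scale of its own in each panel) of the 10 genes in the 4 groups (x axis), where points are single libraries and bars are group means of 2 libraries. PDE5A is highest in both control libraries, PDE7B is highest in both shMETTL14 libraries, and PDE3A and PRKG2 are highest in both shControl libraries.

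All 10 genes are long, from 127.7 kb (PRKG2) to 1519 kb (PDE4D), and lie at the 84.6th to the 99.9th percentile of length among the genes tested. Long genes as a class moved with the groups. For the other 1969 tested genes of at least 127747 bases, the median log2 fold change was 0.32 in shMETTL3 against shControl cells, beside -0.03 over all genes tested, and 35.8% were called higher and 6.6% lower. In shMETTL14 against shMETTL3 cells the same long genes had a median of -0.42, with 8.38% higher and 44.3% lower, and in senescent shControl against control cells a median of -0.14, with 15.1% higher and 28.1% lower. Results for the 10 genes that did not hold with an offset for gene length are marked as such. In a bulk library, fewer transcribing cells and less RNA per cell cannot be told apart.

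The cAMP-specific enzymes behaved differently from each other. PDE7B, a cAMP-specific phosphodiesterase with high affinity, lies at chr6:136172834-136516709 on the plus strand (hg19). It had 143 and 148 counts in control, 363 and 304 in shControl, 1106 and 1189 in shMETTL3 and 3808 and 3051 in shMETTL14 cells. The 4 groups did not overlap, and each stood above the one before it. The shMETTL3 libraries were 8.85-fold above control (log2 fold change 3.15 ± 0.16, 95% interval 2.81 to 3.48, adjusted p = 1.5e-14), and this difference kept its call in each alternative tried, with log2 values from 2.93 to 3.27. The remaining contrasts of PDE7B are descriptions. Its log2 fold change was 1.59 in senescent shControl against control cells, 1.56 in shMETTL3 against shControl, 3.19 in shMETTL14 against shControl, which is 9.15-fold, and 1.63 in shMETTL14 against shMETTL3 cells.

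The gene LOC644135 lies wholly inside PDE7B on the opposite strand and covers 8.43% of it. It had 20 and 14 counts in control, 57 and 54 in shControl, 191 and 218 in shMETTL3 and 453 and 393 in shMETTL14 cells, in the same order as PDE7B. In 60 of 61 pairs in which a gene with a mean of at least 100 counts lies inside a gene on the other strand, the outer gene had at least as many counts as the inner one in every library, so reads of the 2 strands may not be separated in this table. With its counts subtracted, the log2 fold change of PDE7B in shMETTL3 against control cells was 3.04 (adjusted p = 5e-14).

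The promoters of the 3 genes with the widest range between groups, PDE7B, PDE3A and PDE5A, are shown because the assay measures transcription that begins there. Each window runs from 250 bases before to 50 bases into the counted transcript, read 5′ to 3′ on the gene's own strand from GRCh37, the assembly that matches hg19. Capitals mark the cAMP response element TGACGTCA, searched on both strands.
PDE7B, chr6:136172584-136172883, plus strand: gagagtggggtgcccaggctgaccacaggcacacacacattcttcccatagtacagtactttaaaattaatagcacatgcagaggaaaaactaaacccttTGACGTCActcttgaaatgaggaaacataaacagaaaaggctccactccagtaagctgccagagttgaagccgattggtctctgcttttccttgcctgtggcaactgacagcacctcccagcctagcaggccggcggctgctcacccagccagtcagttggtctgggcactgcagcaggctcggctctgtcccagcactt
PDE3A, chr12:20521929-20522228, plus strand: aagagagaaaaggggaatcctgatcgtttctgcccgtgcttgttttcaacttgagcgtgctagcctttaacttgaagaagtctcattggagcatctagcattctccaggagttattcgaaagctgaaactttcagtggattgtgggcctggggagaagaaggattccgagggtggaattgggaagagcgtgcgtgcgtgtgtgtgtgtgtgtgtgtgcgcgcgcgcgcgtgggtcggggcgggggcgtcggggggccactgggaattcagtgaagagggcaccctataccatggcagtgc
PDE5A, chr4:120549932-120550231, minus strand: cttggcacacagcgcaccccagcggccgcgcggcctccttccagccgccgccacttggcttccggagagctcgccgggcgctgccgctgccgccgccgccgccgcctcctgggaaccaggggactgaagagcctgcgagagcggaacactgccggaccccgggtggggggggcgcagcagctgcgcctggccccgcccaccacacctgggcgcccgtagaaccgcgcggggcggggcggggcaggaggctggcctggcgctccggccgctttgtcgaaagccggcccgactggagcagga
The PDE7B window held this element once, starting at position -150 from the start site, and it was the only one of the 10 members' windows with it. Of 27820 windows of the same length in the table, 572 held it, or 2.06%. The AP-1 element TGANTCA, searched in the same way, was in 6.97% of all windows and in none of the 10, and neither motif contains the other. The windows of PDE3B, PDE5A, PDE10A and PRKG2 were rich in G and C (75.7%, 77%, 79.3% and 73.3%), while that of PDE7B held 52.7% and 5 CpG dinucleotides, against 37 CpG in that of PDE5A. A match of letters is a description and does not show binding, and many of these genes have further start sites that the table does not count apart.

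PDE4D, another cAMP-specific phosphodiesterase and the longest gene of the set, had 61 counts in each control library, 249 and 242 in shControl, 291 and 403 in shMETTL3 and 254 and 256 in shMETTL14 cells. All 6 senescent libraries lay above both control libraries. The gene rose 5.25-fold in senescent shControl cells (log2 fold change 2.39 ± 0.18, 95% interval 2.03 to 2.75, adjusted p = 2.8e-11) and was 6.35-fold above control in shMETTL3 cells (2.67 ± 0.17, adjusted p = 1.1e-12). Against shControl, PDE4D did not pass the threshold in shMETTL3 cells (0.28 ± 0.14, interval -0.02 to 0.57, adjusted p = 0.17, and -0.28 with the offset for gene length), although it passed without shMETTL3 replicate 1 (0.44, adjusted p = 0.016) and with library size alone as the scaling, and its value in shMETTL14 cells was -0.11 ± 0.15. It was lower in shMETTL14 than in shMETTL3 cells (-0.38 ± 0.14, adjusted p = 0.039), the weakest of the 4 calls in that contrast. It was lost by DESeq2 (adjusted p = 0.14), with 4 other choices of scaling, filter or groups fitted, and without any one of control replicate 1, control replicate 2, shControl replicate 2, shMETTL14 replicate 1, shMETTL14 replicate 2 or shMETTL3 replicate 2 (adjusted p = 0.058 to 0.42). With the offset for gene length the value was 0.14. PART1, a gene on the opposite strand that shares 385 bases with PDE4D, had 3 and 6 counts in control, 19 and 12 in shControl, 26 and 30 in shMETTL3 and 18 and 21 in shMETTL14 cells.

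PDE4B, the cAMP-specific enzyme best known in inflammatory cells, had 573 and 627 counts in control, 432 and 435 in shControl, 621 and 716 in shMETTL3 and 361 and 419 in shMETTL14 cells. Its normalized count did not differ past the threshold in senescence (log2 fold change -0.08 ± 0.14, interval -0.36 to 0.20, adjusted p = 0.71), but did so with library size alone (-0.58, adjusted p = 0.0043). It rose in shMETTL3 against shControl cells by 0.41 ± 0.14 (adjusted p = 0.032), which was lost by DESeq2 (adjusted p = 0.066), with library size without ribosomal RNA (adjusted p = 0.099), with only the 2 groups fitted (adjusted p = 0.053) and with the offset for gene length (-0.05, adjusted p = 0.82). The call was also lost when any one of the control or shControl libraries or shMETTL3 replicate 2 was left out (adjusted p = 0.054 to 0.22). It was lower in shMETTL14 than in shMETTL3 cells (-0.72 ± 0.14, adjusted p = 0.00019), and the offset for gene length took this to -0.24 (adjusted p = 0.14). Against control, shMETTL3 cells had 0.32 ± 0.14 (adjusted p = 0.058), which passed under 6 of the alternatives (adjusted p = 0.026 to 0.049), and shMETTL14 against shControl cells had -0.31.

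PDE5A, the cGMP-specific phosphodiesterase that sildenafil inhibits, fell furthest in senescence of the 8 members tested. It lies at chr4:120415550-120549981 on the minus strand and had 4245 and 4747 counts in control, 736 and 1120 in shControl, 1175 and 1523 in shMETTL3 and 164 and 381 in shMETTL14 cells. Both control libraries were above all 6 senescent libraries, and both shMETTL14 libraries were below the rest. In senescent shControl cells PDE5A was 3.73-fold below control (log2 fold change -1.90 ± 0.22, 95% interval -2.36 to -1.44, adjusted p = 1.8e-07), and it was 2.98-fold below control in shMETTL3 cells (-1.57 ± 0.22, adjusted p = 1.7e-06). shMETTL3 and shControl cells did not differ past the threshold (0.32 ± 0.22, interval -0.13 to 0.78, adjusted p = 0.31), although with library size alone as the scaling, which moved the median of all genes to 0.58, the value was 0.94 and passed.

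In shMETTL14 cells PDE5A lay 4.7-fold below its level in shMETTL3 cells (-2.23 ± 0.24, interval -2.72 to -1.75, adjusted p = 5.3e-08). The size of this difference rested on the uneven shMETTL14 libraries. It was -3.02 without shMETTL14 replicate 2, outside the interval, and -1.75 without shMETTL14 replicate 1. Against shControl cells the value in shMETTL14 cells was -1.91, and against control -3.81, which is 14-fold. These values rested on the same libraries, running from -2.69 to -1.43 against shControl and from -4.59 to -3.29 against control with shMETTL14 replicate 2 or replicate 1 left out. LOC645513, on the opposite strand, shares 5197 bases with PDE5A, and it had 835 and 943 counts in control, 184 and 238 in shControl, 223 and 296 in shMETTL3 and 76 and 123 in shMETTL14 cells. With 11.6% of its counts, the part of its length that lies in PDE5A, subtracted from PDE5A, the change in senescence was -1.90 and the difference between the knockdowns -2.26.

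PDE5A is prominent in smooth muscle, and the markers of some cell types moved with it while those of others did not. The summed normalized counts of MYH11, CNN1, ACTA2, DES and MYOCD were 302 to 345 in control, 135 to 186 in shControl, 156 to 168 in shMETTL3 and 103 to 105 in shMETTL14 cells. Of the 4 that were tested, 3 (75%, beside 13.3% of all genes) were called lower in senescent shControl cells, and DES, a defining marker, was at 0 in all libraries but one, which had 4 counts. Endothelial markers followed the same order of groups as PDE5A, with sums of 102 to 116, 50.8 to 57.9, 56.4 to 71.2 and 16 to 30.5, nearly all of it TEK, which had 105 and 123, 37 and 48, 49 and 68, and 13 and 26 counts, while the defining markers PECAM1 and CDH5 had at most 2. The endothelial sums of shControl and shMETTL3 cells overlapped, and PDE5A did not differ past the threshold between these groups. The fibroblast sum was also highest in control and lowest in shMETTL14 cells. Epithelial markers, in contrast, summed highest in shMETTL14 cells, where PDE5A was lowest, and the immune marker CD68 was lowest in control cells, where PDE5A was highest. The part of these markers in the PDE5A result was not tested.

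Among the enzymes that accept both nucleotides, PDE3A had the lowest log2 fold change of the set in each knockdown against shControl. PDE3A, a cGMP-inhibited phosphodiesterase of heart, platelets and vascular muscle, lies at chr12:20522179-20837041 on the plus strand. It had 78 and 90 counts in control, 224 and 186 in shControl, 22 and 62 in shMETTL3 and 10 and 10 in shMETTL14 cells. Every shControl library was above every other library, and every knockdown library was below both control libraries. The drop in shMETTL3 against shControl cells was 5.7-fold (log2 fold change -2.51 ± 0.25, 95% interval -3.02 to -2, adjusted p = 3.2e-08), the direction for which the study listed the gene. Its size rested on the uneven shMETTL3 libraries. It was -3.40 without shMETTL3 replicate 2, outside the interval, and -1.998 without shMETTL3 replicate 1. With the offset for gene length it was -2.90.

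The other contrasts of PDE3A are descriptions. Its log2 fold change was 1.67 in senescent shControl against control cells, -4.51 (22.7-fold lower) in shMETTL14 against shControl, -2.83 (7.12-fold lower) in shMETTL14 against control and -1.99 in shMETTL14 against shMETTL3 cells. The last value was -2.51 without shMETTL3 replicate 1 and -1.11 without shMETTL3 replicate 2. In shMETTL3 against control cells it was -0.84, with -1.72 without shMETTL3 replicate 2 and -0.32 without shMETTL3 replicate 1.

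PDE1C, a calcium- and calmodulin-stimulated phosphodiesterase, had 309 and 365 counts in control, 182 and 204 in shControl, 72 and 102 in shMETTL3 and 83 and 81 in shMETTL14 cells. Control libraries were highest, shControl libraries came next, and the knockdown libraries overlapped with each other below them. The gene fell 2.58-fold in shMETTL3 against shControl cells (log2 fold change -1.37 ± 0.17, 95% interval -1.72 to -1.01, adjusted p = 1.3e-06) and was 3.45-fold below control there (-1.79 ± 0.17, adjusted p = 1.3e-09). The 2 knockdowns did not differ past the threshold (-0.03 ± 0.19, interval -0.42 to 0.37, adjusted p = 0.93), and the value in shMETTL14 against shControl cells was -1.39. The smaller fall in senescence (-0.42 ± 0.15, adjusted p = 0.038) was lost by DESeq2 (adjusted p = 0.2), without the filter on low counts, with the offset for gene length, and when any of the control or shControl libraries or shMETTL14 replicate 1 was left out.

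PDE3B and PDE10A were close to the floor of detection. PDE3B, the insulin-responsive relative of PDE3A in fat and liver, had 18 and 25 counts in control, 9 and 8 in shControl, 25 and 23 in shMETTL3 and 10 and 16 in shMETTL14 cells. It passed in shMETTL3 against shControl cells (log2 fold change 1.27 ± 0.45, interval 0.34 to 2.20, adjusted p = 0.043), but the call was lost by DESeq2 (adjusted p = 0.16), with the offset for gene length (0.95, adjusted p = 0.15), with library size without ribosomal RNA (adjusted p = 0.065), with only the 2 groups fitted (adjusted p = 0.068) and when any of the 8 libraries was left out, with the direction kept. PDE3B did not pass in senescence (-0.94 ± 0.46, adjusted p = 0.14) or between the knockdowns (-0.82 ± 0.42, adjusted p = 0.13), and both passed only with library size alone (adjusted p = 0.0098 and 0.04).

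PDE10A, an enzyme known for its abundance in the striatum of the brain, had 24 and 31 counts in control, 9 and 12 in shControl, 22 and 26 in shMETTL3 and 35 and 37 in shMETTL14 cells. The shControl libraries were lowest and the shMETTL14 libraries highest. No tested contrast of PDE10A passed in the fit reported, with -0.997 ± 0.39 in senescence (interval -1.81 to -0.19, adjusted p = 0.062), 0.97 ± 0.40 in shMETTL3 against shControl cells (adjusted p = 0.082) and 0.64 ± 0.33 between the knockdowns (adjusted p = 0.13). In senescence it passed under 5 alternatives, namely library size alone (-1.49, adjusted p = 0.0021), upper quartile scaling (adjusted p = 0.048), library size without ribosomal RNA (adjusted p = 0.039) and the removal of either shMETTL3 library (adjusted p = 0.039 in each). With library size alone it also passed in shMETTL3 against shControl cells (1.58, adjusted p = 0.0012). Between the knockdowns it passed with the offset for gene length (1.09, adjusted p = 0.01) and with library size without ribosomal RNA (0.84, adjusted p = 0.043). Its value in shMETTL14 against shControl cells was 1.61, the second highest of the set after PDE7B.

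The kinase genes moved in opposite directions in senescence. PRKG1 encodes the kinase through which cGMP relaxes smooth muscle, and it had 2949 and 3024 counts in control, 1754 and 1793 in shControl, 2745 and 3436 in shMETTL3 and 1580 and 1678 in shMETTL14 cells. Its fall in senescence was small (log2 fold change -0.37 ± 0.14, adjusted p = 0.045) and was lost by DESeq2 (adjusted p = 0.057), without the filter on low counts (adjusted p = 0.081), with the offset for gene length (-0.18, adjusted p = 0.29) and when any of the control or shControl libraries was left out. PRKG1 rose in shMETTL3 against shControl cells by 0.58 ± 0.14 (adjusted p = 0.0024), a call lost without shControl replicate 2 (adjusted p = 0.062) and with the offset for gene length, where the value was 0.04 (adjusted p = 0.85). Between the knockdowns it was 1.82-fold lower in shMETTL14 cells (-0.86 ± 0.14, interval -1.14 to -0.58, adjusted p = 1.7e-05), and this held with the offset at -0.36 (adjusted p = 0.023). CSTF2T, a gene inside PRKG1 on the other strand, had 19 to 39 counts, and LOC102724719, also inside it, had 4 to 18.

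PRKG2 encodes the membrane-bound cGMP-dependent kinase of intestine, kidney and growth plate. It had 17 and 25 counts in control, 137 and 126 in shControl, 58 and 51 in shMETTL3 and 79 and 55 in shMETTL14 cells. Control libraries were lowest, shControl libraries highest, and the knockdown libraries overlapped with each other in between. PRKG2 rose 8.14-fold in senescence (log2 fold change 3.02 ± 0.25, 95% interval 2.51 to 3.54, adjusted p = 3.3e-10), fell 2.8-fold in shMETTL3 against shControl cells (-1.49 ± 0.22, adjusted p = 1e-05) and stayed 2.91-fold above control there (1.54 ± 0.28, adjusted p = 8.4e-05). The knockdowns did not differ past the threshold (0.35 ± 0.23, interval -0.13 to 0.83, adjusted p = 0.26), although with the offset for gene length they did (0.65, adjusted p = 0.036). The value in shMETTL14 against shControl cells was -1.14. The rise in senescence and the lower values in the knockdowns against shControl cells are the directions for which the study listed the gene. LOC101928942 lies inside PRKG2 on the other strand and covers 22.3% of it, with 1 and 4 counts in control, 23 and 21 in shControl, 4 and 15 in shMETTL3 and 16 and 15 in shMETTL14 cells. With these subtracted, PRKG2 had 2.94 in senescence and -1.495 in shMETTL3 against shControl cells.

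**Figure D2:**
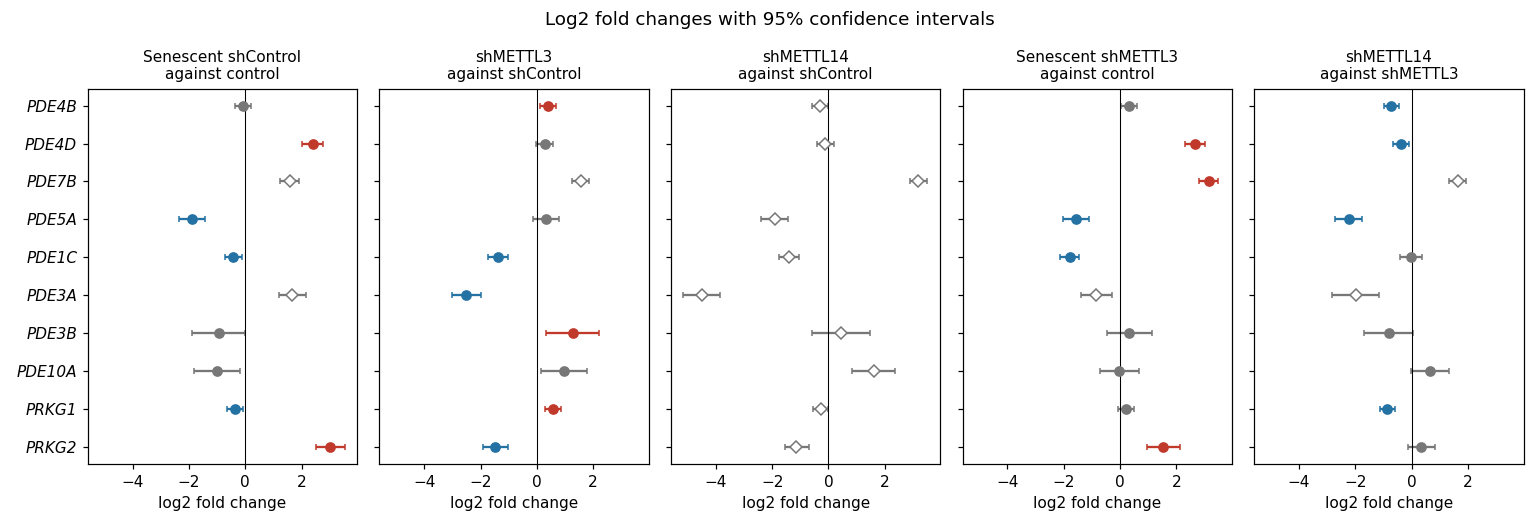
Log2 fold changes (x axis) of the 10 genes (rows) in 5 contrasts (panels), with 95% confidence intervals from the edgeR fit over 8 libraries. Filled circles were tested, red for higher, blue for lower and gray for not called, and open diamonds are values with no test. PDE7B lies to the right of 0 in each panel, and PDE3A lies to the right in senescence only.

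Levels were compared between genes per kilobase of gene, as normalized counts per kb (mean ± SD, n = 2). In control cells PDE5A led with 29.4 ± 1.97, followed by PRKG1 at 2.01 ± 0.01 and PDE4B at 0.91 ± 0.05, and it made up 87% of the level summed over the 10 genes. In shControl cells PDE5A was at 7.87 ± 1.98, or 56.2% of the sum, ahead of PRKG1 (1.56 ± 0.04), PRKG2 (1.18 ± 0.12) and PDE7B (1.12 ± 0.19), of which the last pair overlapped. In shMETTL3 cells the order was PDE5A (9.86 ± 1.26), PDE7B (3.29 ± 0.01) and PRKG1 (2.33 ± 0.24). In shMETTL14 cells PDE7B led with 10.2 ± 1.22, or 66.5% of the sum, and PDE5A followed with 2.10 ± 1.25, overlapping PRKG1 at 1.28 ± 0.10. The share of PDE7B in the sum was 1.1% in control, 8% in shControl and 18.6% in shMETTL3 cells, while the sum itself was 33.8, 14, 17.7 and 15.3 in control, shControl, shMETTL3 and shMETTL14 cells. PDE4D was last in control cells at 0.04, PDE10A was last in shControl and shMETTL3 cells, and PDE3A was last in shMETTL14 cells at 0.03.

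**Figure D3:**
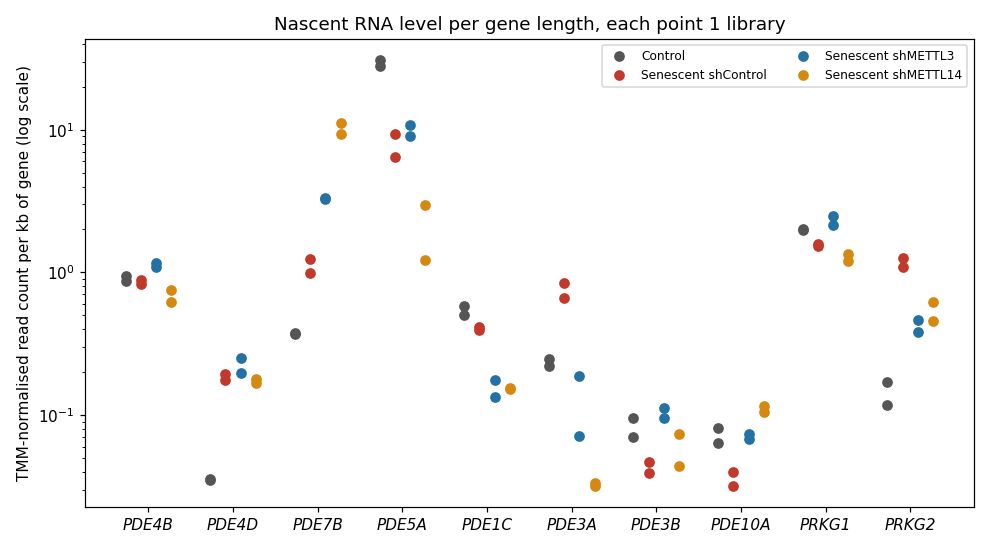
Normalized read count per kilobase of gene (y axis, log scale) for each gene (x axis), 1 point per library, colored by group. The PDE5A and PDE7B columns exchange places, with PDE5A highest in control and PDE7B highest in shMETTL14 libraries.

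The rest of the cyclic nucleotide pathway was followed in lists chosen by role, with values for the called genes that rose or fell most in a contrast among those averaging at least 50 counts. Genes below that level, such as PDE1A and ADCY3, moved more in some contrasts and are named here after their values were seen. Of 16 other phosphodiesterase genes 9 were tested, and PDE8A, a cAMP-specific enzyme, had 220 and 239 counts in control, 233 and 207 in shControl, 308 and 460 in shMETTL3 and 238 and 228 in shMETTL14 cells. In this list 1 gene (11.1%) was higher and none lower in senescence, beside 13.3% and 13.3% of all genes. In shMETTL3 against shControl cells 2 (22.2%) were higher and 1 (11.1%) lower, beside 12.2% and 11.2%, and in shMETTL14 against shControl cells 1 (11.1%) was higher and none lower, beside 9.15% and 12%. Between the knockdowns 1 (11.1%) was higher and 3 (33.3%) lower, beside 16.5% and 18.7%. PDE1A, which like PDE1C is stimulated by calcium and calmodulin, had 7 and 8 counts in control, 19 and 14 in shControl, 6 and 6 in shMETTL3 and 48 and 34 in shMETTL14 cells. It was called higher in senescence (1.51 ± 0.48, adjusted p = 0.019), lower in shMETTL3 (-1.66 ± 0.50, adjusted p = 0.017) and higher in shMETTL14 cells (1.14 ± 0.37, adjusted p = 0.026) against shControl. PDE8A rose by 0.58 ± 0.15 in shMETTL3 against shControl cells (adjusted p = 0.0069), and the list had a median of 0.55 there, beside -0.03 over all genes tested and 0.32 over the long genes.

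Genes of cGMP synthesis were mostly too low to test, and the calls among adenylyl cyclases were mostly lower. Of 15 genes listed for cGMP synthesis in the table, 2 were tested, and neither passed in any contrast. They were NPR2, a natriuretic peptide receptor that is itself a guanylyl cyclase, and NPR3, the clearance receptor for these peptides, which makes no cGMP. The genes for the soluble guanylyl cyclase, GUCY1A1 and GUCY1B1, had at most 1 and 11 counts in a library. Of 10 adenylyl cyclase genes 5 were tested, of which 2 (40%) were lower and none higher in senescence, beside 13.3% and 13.3% of all genes. In shMETTL3 against shControl cells 1 (20%) was lower and none higher, beside 11.2% and 12.2%, and in shMETTL14 against shControl cells 2 (40%) were lower and none higher, beside 12% and 9.15%. Against control cells 3 (60%) were lower in shMETTL3 cells, where none was higher, and 3 (60%) in shMETTL14 cells, where 1 was higher, beside 20.1% and 20.5% of all genes lower and 20.1% and 19.7% higher. Between the knockdowns 1 (20%) was higher and 1 (20%) lower, beside 16.5% and 18.7%. ADCY3 fell in senescence by 1.26 on the log2 scale (SE 0.28, adjusted p = 0.0011), from 84 and 66 counts in control to 22 and 26 in shControl cells. ADCY9 fell in senescence by 0.98 on the log2 scale (SE 0.18, adjusted p = 0.00014), from 192 and 205 counts in control to 69 and 85 in shControl cells. ADCY6 fell by 0.97 in shMETTL3 against shControl cells (SE 0.21, adjusted p = 0.0012). ADCY7 was the gene called higher between the knockdowns (0.97 ± 0.35, adjusted p = 0.033).

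Among 15 tested cAMP effectors, 3 (20%) were higher and 2 (13.3%) lower in senescence, beside 13.3% and 13.3% of all genes. There were 3 (20%) higher and 3 (20%) lower in shMETTL3 against shControl cells, beside 12.2% and 11.2%, and in shMETTL14 against shControl cells 2 (13.3%) were higher and 4 (26.7%) lower, beside 9.15% and 12%. Between the knockdowns 1 (6.67%) was higher and 2 (13.3%) lower, beside 16.5% and 18.7%. PKIA, an inhibitor of protein kinase A, had 30 and 36 counts in control, 79 and 66 in shControl, 139 and 150 in shMETTL3 and 146 and 130 in shMETTL14 cells, and rose in senescence by 1.52 ± 0.23 (adjusted p = 9.9e-06). PKIG, a related inhibitor, changed by -0.95 ± 0.22 in senescence (adjusted p = 0.0014). In shMETTL3 against shControl cells PRKACB, a catalytic subunit of protein kinase A, rose by 0.90 ± 0.15 (adjusted p = 6.6e-05), while PRKACA, another catalytic subunit, changed by -0.86 ± 0.23 (adjusted p = 0.007). In shMETTL14 against shControl cells the transcription factor CREB5 rose by 1.12 ± 0.17 (adjusted p = 1.7e-05) and RAPGEF4, an exchange factor that cAMP activates directly, changed by -1.36 ± 0.27 (adjusted p = 0.00041). CREB3L1, a membrane-bound relative of CREB, was lower in shMETTL3 than in control cells (-1.28 ± 0.18, adjusted p = 2.2e-06).

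Of 7 tested substrates of cGMP kinase, 1 (14.3%) was lower and none higher in senescence, beside 13.3% and 13.3% of all genes. In shMETTL3 against shControl cells 4 (57.1%) were higher and 2 (28.6%) lower, beside 12.2% and 11.2% of all genes and 35.8% and 6.6% of the long genes described above, and the part of gene length in this count was not tested. In shMETTL14 against shControl cells 1 (14.3%) was higher and 1 (14.3%) lower, beside 9.15% and 12%, and between the knockdowns 1 (14.3%) was higher and 3 (42.9%) lower, beside 16.5% and 18.7%. MRVI1, which links the kinase to calcium release, had 357 and 306 counts in control, 28 and 77 in shControl, 10 and 5 in shMETTL3 and 3 and 14 in shMETTL14 cells. It fell in senescence (-2.28 ± 0.26, adjusted p = 1.4e-07) and again in shMETTL3 (-3.00 ± 0.47, adjusted p = 2.8e-05) and shMETTL14 cells (-2.76 ± 0.46, adjusted p = 5.9e-05) against shControl. ITPR1, the calcium channel it acts on, rose by 0.96 ± 0.23 in shMETTL3 against shControl cells (adjusted p = 0.0031), and the potassium channel KCNMA1 was 1.01 ± 0.13 above control in shMETTL3 cells (adjusted p = 4.9e-07). Between the knockdowns VASP, an actin regulator, was higher in shMETTL14 cells (0.93 ± 0.19, adjusted p = 0.00035) and PPP1R12A, the targeting subunit of myosin phosphatase, was lower (-0.58 ± 0.14, adjusted p = 0.0021).

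Of 10 tested genes for efflux pumps and anchoring proteins, 2 (20%) were higher and 3 (30%) lower in senescence, beside 13.3% and 13.3% of all genes. Of the same genes 4 (40%) were higher and 1 (10%) lower in shMETTL3 against shControl cells, beside 12.2% and 11.2%, and in shMETTL14 against shControl cells none was higher and 4 (40%) were lower, beside 9.15% and 12%. Between the knockdowns 1 (10%) was higher and 5 (50%) lower, beside 16.5% and 18.7% of all genes and 8.38% and 44.3% of the long genes. ABCC4, a pump that exports cyclic nucleotides, had 2816 and 2856 counts in control, 1179 and 1375 in shControl, 1560 and 1679 in shMETTL3 and 468 and 688 in shMETTL14 cells. The order of its groups was that of PDE5A. In neither gene did shMETTL3 and shControl cells differ past the threshold (for ABCC4 0.13 ± 0.16, adjusted p = 0.6). ABCC4 fell in senescence (-0.77 ± 0.16, adjusted p = 0.00039) and was lower in shMETTL14 than in shMETTL3 cells (-1.42 ± 0.16, adjusted p = 1.2e-07). AKAP12, an anchor for protein kinase A, rose in senescence by 1.83 ± 0.15 (adjusted p = 1.8e-10) and fell by 0.93 in shMETTL3 against shControl cells (SE 0.14, adjusted p = 1.7e-05), where the pump ABCC5 rose by 0.51 ± 0.16 (adjusted p = 0.02).

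**Figure D4:**
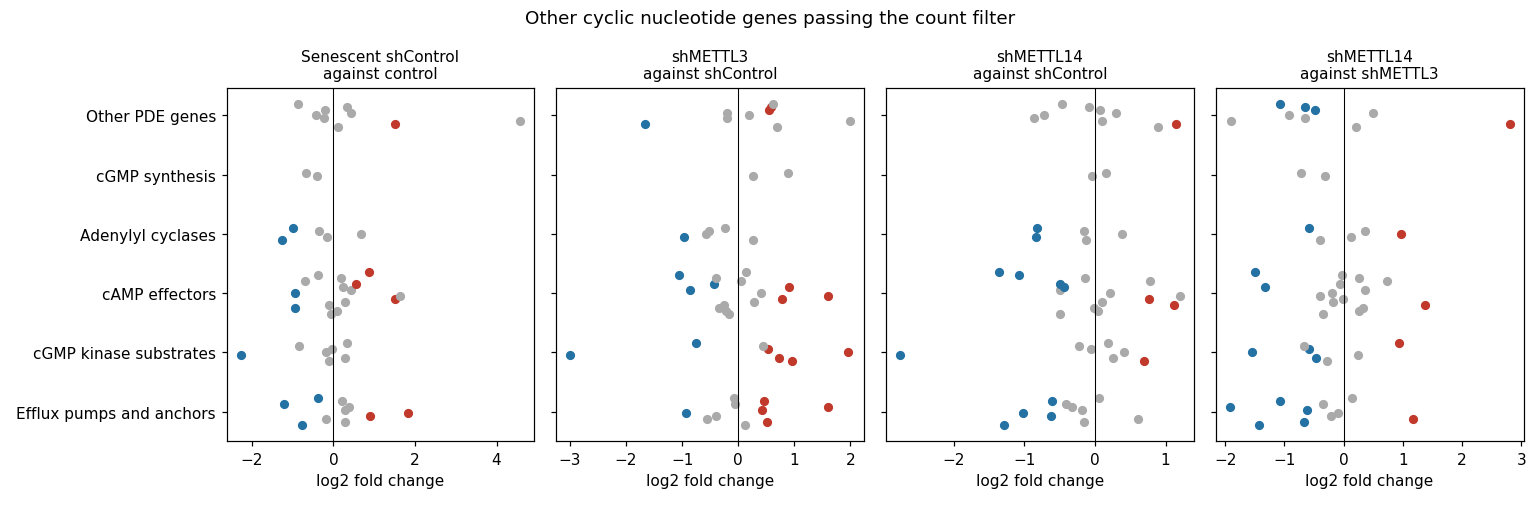
Log2 fold changes (x axis, with a scale of its own in each panel) of the tested genes of 6 pathway lists (rows) in 4 contrasts (panels), 1 point per gene, red for called higher, blue for called lower and gray for not called. The lowest point among the cGMP kinase substrates in senescence and in both knockdowns against shControl is MRVI1.

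The genes whose pattern over the 8 libraries was most like that of PDE7B, by Pearson correlation of log2 normalized counts among 3881 genes averaging 100 counts or more, were NFKB1 (r = 0.996), ETS1 (0.989) and LRRC49 (0.986). NFKB1, a subunit of the NF-kB transcription factor, had 172 and 169 counts in control, 223 and 198 in shControl, 409 and 506 in shMETTL3 and 763 and 670 in shMETTL14 cells. Its range was narrower than that of PDE7B, but its groups stood in the same order. For PDE3A, among 3883 genes, the most alike were ACTR2 (0.973), PTGES3 (0.973) and FMNL2 (0.97), and ACTR2, a subunit of the actin-nucleating complex, had 480 and 522, 542 and 550, 388 and 497, and 335 and 305 counts in the same order of groups. The range of ACTR2 was much narrower than that of PDE3A. Its shMETTL3 and control libraries overlapped, while PDE3A in shMETTL3 cells lay below both control libraries. The 8 points of each correlation fall into 4 groups and share their libraries, so the values describe likeness of pattern and carry no test.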

How the data were processed

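IMR90 nascent RNA was profiled by fastGRO-seq in 8 libraries, 2 per group. The authors aligned reads to hg19 (the submitters' processing notes name STAR and deepTools 3.3) and deposited raw counts per gene, made with HOMER over whole gene bodies with 1 transcript row per gene and replicates kept apart. The header gives a strand option, but whether strands were separated is not certain from the values. The deposited gene length was used for levels per kb.

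Counts were tested with edgeR 4.0.16 in R 4.3.3 (TMM, filterByExpr with a minimum count of 10, a single quasi-likelihood fit over 4 groups, Benjamini-Hochberg adjustment over the 12844 genes tested, threshold 0.05). Normalized counts are counts divided by TMM-scaled library size and multiplied by the mean of that size. All errors of log2 fold changes are standard errors, and intervals are 95%. The common biological coefficient of variation was 10.6%, and intervals do not cover technical effects shared by both libraries of a group. Each gene has a single spread for all 4 groups. Errors, intervals and p-values can therefore understate the spread of the noisier shMETTL3 and shMETTL14 libraries. With 2 libraries per group no permutation test of a single gene could pass the threshold. Scaling did not use the Drosophila spike-in, and global shifts in transcription are therefore outside what these values can show.

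The fit was tested on simulated counts of shMETTL3 against shControl over 12271 genes. It called 49 of 50 genes raised by 2, 39 of 46 lowered by 2, 25 of 50 raised by 1 and 26 of 48 lowered by 1 on the log2 scale. It also called 8 of 12077 unchanged genes. All groups were simulated with the same spread, taken from the fit, so these numbers do not describe the noisier shMETTL3 libraries.

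The members, lists, tests and alternatives were chosen with earlier results of these data known. The alternatives were DESeq2 1.42.0, 3 other scalings, 2 other filters, fits of only the groups compared, the replicate number as a block, an offset for gene length, an adjusted p below 0.01, removal of 1 library at a time and subtraction of the counts of overlapping genes in proportion to the overlap. The genes named are the members, METTL3, METTL14, genes overlapping a member with a mean of at least 10 counts, the 3 genes most correlated with PDE3A and with PDE7B, and from each list the called genes that rose or fell most in a contrast at a mean of at least 50 counts. Marker genes, PDE1A, ADCY3, ADCY7 and the soluble guanylyl cyclase genes were named after their values were seen. Promoter windows came from GRCh37, where no row ended past its chromosome on any of 24 chromosomes. Plots were drawn with matplotlib 3.10.9.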

Additional observations from a re-analysis of the deposited data

Results flagged for a closer look

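Of the 8 members tested in shMETTL14 against shMETTL3 cells, which compares the knockdown effects with each other because both are taken against the same shControl libraries, 4 differed, all lower, beside 18.7% of all genes called lower and 16.5% higher. PDE5A had a log2 difference of -2.23, PRKG1 of -0.861, PDE4B of -0.716 and PDE4D of -0.382, each lower in shMETTL14 cells. For PDE5A, PRKG1 and PDE4B both shMETTL14 libraries had lower counts than both shMETTL3 libraries, and the same held for PDE4D. This describes the same libraries that gave the calls and adds no support to them. The share of all genes without such overlap was not counted. Long genes as a class were lower in the same contrast (median -0.42 for 1969 other genes, of which 44.3% were called lower and 8.38% higher), and with an offset for gene length PDE5A and PRKG1 stayed past the threshold while PDE4B and PDE4D did not. With 2 libraries in each group, single libraries far from their group could not be looked for.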

How the results depend on the processing

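The number of members called moved with the processing in senescence and in shMETTL3 against shControl cells. In senescence, against 5 in the fit reported, DESeq2, no filter on low counts, the offset for gene length and an adjusted p below 0.01 each gave 3, library size alone gave 8, and leaving out 1 library gave 3 to 6. The calls over all genes moved too, from 13.3% higher and 13.3% lower to 9.58% and 7.07% with DESeq2, 8.4% and 7.56% with no filter, 14.8% and 12.4% with the offset, 9.49% and 8.14% below 0.01, 5.85% and 39% with library size alone, and 8.53% to 16.2% and 5.57% to 16.8% with 1 library left out. In shMETTL3 against shControl cells the offset for gene length gave 3 against 6 (none higher, against 3), library size alone gave 9 (6 higher), and leaving out 1 library gave 3 to 6. Over all genes, 12.2% higher and 11.2% lower became 9.51% and 9.92% with the offset, 41.1% and 2.75% with library size alone, and 6.07% to 15.2% and 5.37% to 15.4% with 1 library left out. In shMETTL3 against control cells the count was 5 to 6 with 1 library left out, and between the knockdowns 3 to 4, and no alternative moved these totals by more than 1.5 times. Between the knockdowns the direction of the calls moved all the same, with 2 higher and 2 lower with the offset for gene length and 1 higher and 3 lower with library size without ribosomal RNA, against none higher and 4 lower. Over all genes, 16.5% higher and 18.7% lower became 15.2% and 16.5% with the offset and 24.9% and 12.9% with library size without ribosomal RNA. The 3 calls that were left in senescence where the count was 3 concern PDE4D, PDE5A and PRKG2.

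Among the directions that turned were those of 2 called results, PDE4B in shMETTL3 against shControl cells (0.41 in the fit reported) and PDE4D between the knockdowns (-0.38). With the offset for gene length PDE4B was 0.10 in senescence and -0.049 in shMETTL3 against shControl cells, PDE4D was -0.28 in shMETTL3 against shControl cells and 0.14 between the knockdowns, PRKG1 was -0.14 in shMETTL3 against control cells, and PDE1C was 0.46 between the knockdowns. PDE1C between the knockdowns was also 0.022 with upper quartile scaling, 0.18 with library size without ribosomal RNA, 0.0039 with at least 10 counts in every library and 0.21 without shMETTL3 replicate 2, where the last ranges from -0.20 to 0.21 over the libraries left out. PDE10A in shMETTL3 against control cells was 0.091 with library size alone and ran from -0.19 to 0.15 over the libraries left out. Library size alone moved the median of all genes to -0.53 in senescence, 0.58 in shMETTL3 and 0.35 in shMETTL14 cells against shControl and -0.25 between the knockdowns, and gave PDE4B 0.036 and PRKG1 0.067 in shMETTL14 against shControl cells. PDE4D in shMETTL14 against shControl cells ran from -0.17 to 0.25 over the alternatives. The causes were not tested.

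With the replicate number as a block, 5, 6, 6 and 4 members were called in the 4 tested contrasts, against 5, 6, 5 and 4 without it, the addition being PDE4B in shMETTL3 against control cells (adjusted p = 0.049). Deviations of same-numbered libraries correlated by -0.06 to 0.29 across groups, so the numbers are not shown to pair the samples. Counts under about 40 per library limit PDE3B and PDE10A. Counts this low also enter the fold changes of PDE3A (10 and 10 in shMETTL14 cells, 22 in shMETTL3 replicate 1) and of PRKG2 (17 and 25 in control cells).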
